A study of Homo sapiens with 4 samples.

Results

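The kallikrein-related peptidases are secreted serine proteases whose genes stand side by side on the long arm of chromosome 19, and 10 of them are described here: KLK3, KLK5, KLK6, KLK7, KLK8, KLK9, KLK10, KLK11, KLK13 and KLK14. They were chosen by gene symbol, as 10 of the 62696 gene rows in each library. With a filter of at least 10 normalized read counts on average over the libraries, 9 of the 10 were tested, among 23344 tested genes. KLK9 had no read in any library and was not tested. The study sequenced total RNA of OVCAR3, an established human line of high-grade serous ovarian carcinoma, as 4 libraries. In 3 of them (KD 1, KD 2 and KD 3) the genotype is OVCAR3 with knockdown of ANAPC1P2, a pseudogene of the anaphase-promoting complex gene ANAPC1. The remaining library (WT) is from wild-type OVCAR3 cells, and all cells grew in RPMI with 10% FBS. No library is labelled as a control for the knockdown procedure, so effects of the procedure and of losing ANAPC1P2 cannot be told apart. The labels do not say whether the 3 knockdown sets were separate cultures, clones or hairpins, so a p-value here reflects only how far these libraries spread, which can be technical.

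Kallikreins are made as inactive precursors that are cut to become active, often by another kallikrein, so that members work in chains. Most cleave after basic residues as trypsin does, whereas KLK3 and KLK7 cleave more as chymotrypsin does. In skin, KLK5, KLK7 and KLK14 shed the outermost cells by cutting the proteins that join them, and inhibitors such as the product of SPINK5 hold them in check. KLK2 and KLK3 are made mainly in the prostate and act in semen. Several members, KLK6 and KLK10 among them, are long-studied markers in ovarian carcinoma.

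The stretches around the gene starts were compared among genes of this one cluster. RefSeq promoter windows of 300 bases (250 before the start and 50 after it, GRCh38.p14) matched 9 of the 10 members with 16 windows in all. Of these, 4 windows are printed: those of KLK5 and KLK6, the members with the highest level per length in knockdown, and those of KLK3 and its neighbour KLK2, the kallikrein genes with the largest falls. The windows are chr19:50952989-50953288 for KLK5 and chr19:50969542-50969841 for KLK6, both on the minus strand, and chr19:50854665-50854964 for KLK3 and chr19:50873189-50873488 for KLK2, both on the plus strand. Each is written 5′ to 3′ along the gene, and capitals mark matches on either strand to 4 motifs. These were the TATA box searched as TATAAA, and the GC box bound by Sp1 proteins searched as GGGCGG. The AP-1 site, bound by Jun and Fos proteins, was searched as TGANTCA. The core of steroid receptor sites was searched as AGAACA. No matches overlap in the printed windows.
KLK5: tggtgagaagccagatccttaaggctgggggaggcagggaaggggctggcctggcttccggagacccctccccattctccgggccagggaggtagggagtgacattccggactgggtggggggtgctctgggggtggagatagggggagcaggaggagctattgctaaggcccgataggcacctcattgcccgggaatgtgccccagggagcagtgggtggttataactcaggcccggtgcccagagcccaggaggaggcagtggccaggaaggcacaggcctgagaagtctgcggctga
KLK6: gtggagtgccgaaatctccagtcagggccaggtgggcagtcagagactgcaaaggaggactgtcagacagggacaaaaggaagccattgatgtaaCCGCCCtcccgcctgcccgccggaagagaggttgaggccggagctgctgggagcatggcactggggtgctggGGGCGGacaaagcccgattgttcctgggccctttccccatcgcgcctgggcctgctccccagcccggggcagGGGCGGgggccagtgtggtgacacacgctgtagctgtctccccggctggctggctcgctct
KLK3: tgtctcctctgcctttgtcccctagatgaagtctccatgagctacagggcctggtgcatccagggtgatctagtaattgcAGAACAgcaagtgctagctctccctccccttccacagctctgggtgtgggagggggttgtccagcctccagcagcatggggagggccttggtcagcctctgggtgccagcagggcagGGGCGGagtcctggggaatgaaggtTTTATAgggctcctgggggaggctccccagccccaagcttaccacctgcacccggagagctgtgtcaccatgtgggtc
KLK2: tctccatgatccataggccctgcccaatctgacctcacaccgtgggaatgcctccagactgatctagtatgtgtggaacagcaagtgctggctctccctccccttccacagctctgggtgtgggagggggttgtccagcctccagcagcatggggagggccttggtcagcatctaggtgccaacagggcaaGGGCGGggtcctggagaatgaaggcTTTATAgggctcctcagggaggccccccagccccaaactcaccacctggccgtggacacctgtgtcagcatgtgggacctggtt

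The KLK3 and KLK2 windows were 79.3% identical, whereas the 77 other pairs of windows compared among kallikrein genes were 40.0% to 52.6% identical, with a median of 46.5%. Only the first listed window of each gene was aligned, and KLK2, KLK4, KLK12 and KLK15 were included beside the members. Unrelated promoters were not compared, so these values have no outside reference. KLK3 was the only one of the 9 matched members with the exact letters TATAAA, and variants of the TATA box were not searched. The match begins 28 bases before the KLK3 start as the reverse-strand letters TTTATA, and KLK2 has the same letters 34 bases before its start. TATAAA is in 11.5% of all 35116 windows. KLK3 was also the only member with AGAACA, found in 14.8% of all windows, 170 bases before its start. GGGCGG was in 11 of the 16 member windows, from 7 members (KLK3, KLK6, KLK7, KLK9, KLK11, KLK13 and KLK14), against 45.0% of all windows. Some windows of KLK7, KLK10, KLK13 and KLK14 overlap within the gene, so the same match can count in more than 1 window. KLK6 holds GGGCGG 3 times, at 155, 83 and 11 bases before its start. No member window held TGANTCA, which is in 7.7% of all windows. The printed KLK5 window holds none of the 4 motifs. The median GC content was 61.8% over the member windows (54.3% to 70.7%) and 58.7% over all windows. These matches describe letters, and the data hold no measure of binding.

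Reads counted in genes numbered 42871815 to 56216398 per knockdown library and 27868718 in WT. ANAPC1P2, the target, has 2 gene rows and was rare in both. The row ENSG00000231259 had 0 reads in all 4 libraries. The row ENSG00000285793 had 0, 11 and 8 reads in KD 1, 2 and 3 and 14 in WT. The knockdown rate of the latter was 0.377 of that in WT (95% exact counting interval 0.179 to 0.813), and both rows were below the filter. Ovarian and epithelial markers were present in every library, with all 16 of 16 tested: 9 higher and 5 lower in knockdown with the deposited scaling (with equal library totals 6 and 7, with median-of-ratios factors 9 and 3). Their summed level was nonetheless lower in knockdown, at 131693 to 147960 normalized counts against 579532 in WT. Most of the WT sum came from MUC16 (26757, 35345 and 24678 in knockdown, 458890 in WT), and PAX8 was also lower (18322, 19970 and 21361 against 62685). These 2 were singled out after their values were seen. The wild-type library stood apart in markers of other tissues. The 10 erythroid markers summed to 15024 normalized counts in WT and to 17.8 to 29.5 in the knockdown libraries, where 6 of them, HBB among them, had no read, and all 6 that were tested were lower. Leukocyte markers (14 genes) summed to 1680 in WT and 443 to 466 in knockdown, where CD68, FCGR3B, ITGAM and LYZ had no read, and 9 of 10 tested were lower. Fibroblast markers (10 genes) summed to 1274 and 568 to 673, with 3 of 8 tested lower. Neural markers (16 genes) summed to 6264 in WT and 5667 to 6435 in knockdown, where 5 of them, MOG, NEUROD1, NEUROD6 and OLIG2 included, had no read, and of 10 tested 2 were higher and 5 lower. A marker without a knockdown read could pass the filter only through WT, so its being lower was fixed in advance. The part of these marker differences in the results below was not tested.

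Among the 9 tested kallikreins, 4 rose and 2 fell in knockdown. The 4 that rose were KLK5, KLK6, KLK7 and KLK10, and the 2 that fell were KLK3 and KLK11 (limma, two-sided, Benjamini-Hochberg adjusted p under 0.05, all 4 libraries in the fit). That is 44.4% higher and 22.2% lower, beside 31.4% higher and 36.3% lower over all 23344 tested genes. KLK3 passed the filter only through WT, so it could be called lower or not called, but not higher. Among protein-coding genes alone, which all members are, 46.3% were called higher and 25.6% lower, so the shares of called members were near this background. The median log2 difference, knockdown minus wild type, was 0.62 over the tested members and -0.28 over all tested genes, and it was 0.28 over tested protein-coding genes. The member median was also 0.62 with KLK3, which had no read in knockdown, set to a floor of 3 reads over the knockdown group. With the deposited scaling, all 3 knockdown libraries lay above WT for 5 members, as for 40.0% of all tested genes, and below WT for 3, as for 52.2%. On that scale KLK8 was the single tested member whose groups overlapped.

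Scaling bears on these counts, because the median of all tested genes depends on it. It was -0.28 with the deposited factors, -0.18 with TMM, -0.004 with median-of-ratios factors and -0.836 with equal library totals. Over all tested genes, 7329 were higher and 8465 lower with the deposited factors, 8758 and 6623 with median-of-ratios factors, and 4746 and 12509 with equal totals. Of the members, 3 were higher and 3 lower with equal totals. By edgeR's quasi-likelihood test on the recovered reads, 4 members were higher and 3 lower, beside 34.2% and 36.5% of all tested genes. An exact permutation of the 4 library labels could not give a p below 0.25 for any single gene. In bulk RNA, fewer cells of a type and less RNA per cell cannot be told apart.

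**Figure D1:**
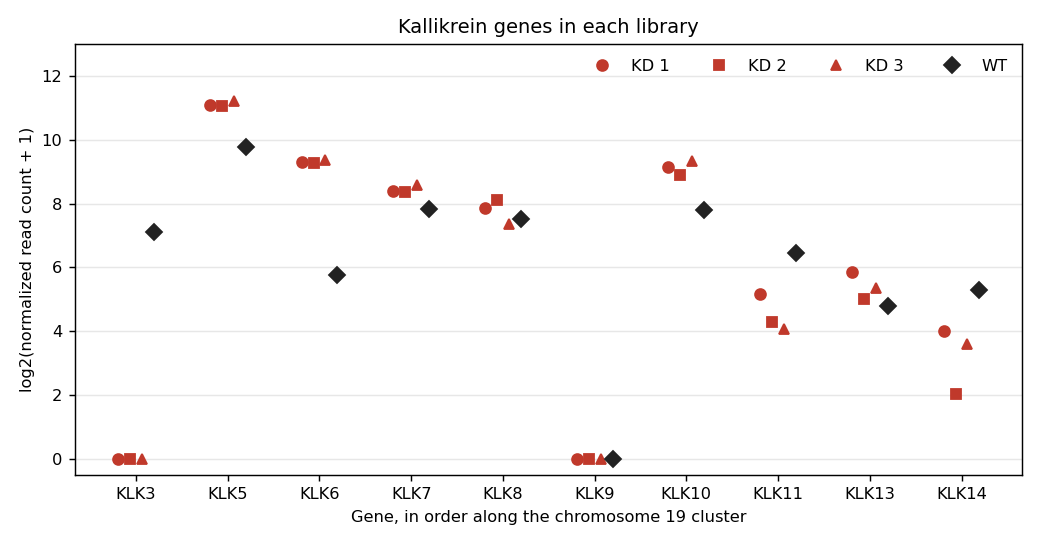
Normalized read counts of the 10 kallikrein genes, on a log2(value + 1) axis, in the 3 knockdown libraries (red) and the wild-type library (black), 1 point per library. KLK6 shows the widest gap upward (616 to 665 against 53.3), KLK3 drops from 136 to no read, and the knockdown points of KLK8 lie on both sides of WT.

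The largest rise was in KLK6, a trypsin-like protease also known as neurosin. KLK6 (ENSG00000167755, chromosome 19, 50958631 to 50969673, minus strand, GENCODE 29 on GRCh38) had 635, 616 and 665 normalized counts in KD 1, 2 and 3 and 53.3 in WT. The 3 knockdown libraries lay close together and far above WT, which rests on 48 reads. The knockdown mean was 639 ± 24.5 (SD, n = 3), 11.9-fold that of WT as a rate of reads (exact 95% interval from counting, 8.96 to 16.2). The log2 difference was 3.56 with a standard error (SE) of 0.15 (limma adjusted p = 6.57e-05), higher than that of 99.4% of all tested genes.

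KLK5, which activates other kallikreins in skin, was the most abundant member in every library. KLK5 (ENSG00000167754, 50943303 to 50953093, minus strand) had 2181, 2107 and 2376 normalized counts in knockdown and 879 in WT. All knockdown libraries were above WT by a margin wider than their own range. The mean of 2221 ± 139 (SD, n = 3) was 2.51-fold the wild-type rate (95% interval 2.33 to 2.71), with a log2 difference of 1.34 (SE 0.11, limma adjusted p = 1.33e-04). KLK10, first described as a gene of normal epithelial cells that is lost in some tumours, rose by a similar ratio. KLK10 (ENSG00000129451, 51012739 to 51020175, minus strand) had 561, 472 and 641 normalized counts in knockdown and 219.9 in WT. The groups did not overlap. The mean was 558 ± 84.9 (SD, n = 3), 2.49-fold the wild-type rate (2.15 to 2.90), with a log2 difference of 1.33 (SE 0.20, limma adjusted p = 0.00142).

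KLK7, the chymotrypsin-like partner of KLK5 in skin shedding, rose less. KLK7 (ENSG00000169035, 50976482 to 50984099, minus strand) had 336, 331 and 381 normalized counts in knockdown and 225 in WT. Its knockdown libraries were all above WT, by less than in KLK5. The mean of 349.6 ± 27.6 (SD, n = 3) was 1.54-fold the wild-type rate (1.32 to 1.79), with a log2 difference of 0.63 (SE 0.17, limma adjusted p = 0.016). With equal library totals the log2 difference of KLK7 was 0.07 (adjusted p = 0.691), and KLK5, KLK6 and KLK10 were still called higher.

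KLK8, or neuropsin, a trypsin-like protease of skin and brain, was not called. KLK8 (ENSG00000129455, 50996007 to 51002711, minus strand) had 233, 277 and 163 normalized counts in knockdown and 181 in WT. KD 3 lay below WT and the others above it, so the groups overlapped. The log2 difference was 0.28 (SE 0.31, 95% interval -0.47 to 1.02, limma adjusted p = 0.446), and it was -0.28 with equal library totals. KLK13, a trypsin-like protease of squamous epithelia, was low throughout. KLK13 (ENSG00000167759, 51056206 to 51065114, minus strand) had 56.9, 31.1 and 40.0 normalized counts in knockdown and 26.7 in WT, which rests on 24 reads. All 3 knockdown libraries were above WT, but KD 2 only by a margin within the counting interval of WT (17.1 to 39.7). Its log2 difference was 0.62 (SE 0.48, 95% interval -0.53 to 1.76, limma adjusted p = 0.28). With equal library totals the log2 difference of KLK13 was 0.07, and as RPM, reads scaled by library total, KD 2 (0.712) and KD 3 (0.84) lay below WT (0.861) and KD 1 (1.24) above it.

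KLK3 encodes prostate-specific antigen, which liquefies semen by cutting the semenogelins. KLK3 (ENSG00000142515, 50854915 to 50860764, plus strand) had no read in any knockdown library and 122 reads, or 136 normalized counts, in WT. The libraries did not overlap, and the WT value was 146-fold a floor of 3 reads over the knockdown group. This ratio leaves out the counting error in WT (95% counting interval 113 to 162), so the true ratio could be smaller. The fitted log2 difference of -7.09 (SE 0.78, limma adjusted p = 4.09e-04) depends on the pseudocount of 1 and is no bound. KLK2, whose product can activate that of KLK3, was low in the same libraries. It had 2.84, 4.66 and 2.22 normalized counts in knockdown and 74.4 in WT, 21.9-fold lower in knockdown (95% interval 11.5 to 46; log2 difference -4.19, SE 0.68, limma adjusted p = 0.00214). Both KLK3 and KLK2 passed the filter only through WT, so a fall was the only direction possible once they were tested. Of the 5119 stretches of 50 bases in KLK3 transcripts, 11 (0.2%) also occur in KLK2, so few reads could be confused between them.

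KLK3 and KLK2 are best known from prostate, and the other prostate luminal markers were read beside them. Of 12 such markers 7 were tested, 1 was higher and 2, KLK2 among them, were lower with the deposited scaling (3 and 1 with median-of-ratios scaling). Their summed level was 1328 normalized counts in WT and 2633 to 2863 in knockdown, where MSMB had no read. The defining marker TMPRSS2 had 13.3 normalized counts in WT and 3.79, 1.55 and 2.22 in knockdown. The part of these markers in the KLK3 result was not tested.

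KLK11, a trypsin-like protease known from brain and prostate, also fell. KLK11 (ENSG00000167757, 51022216 to 51028039, minus strand) had 35.1, 18.6 and 15.6 normalized counts in knockdown and 86.6 in WT. All knockdown libraries lay below WT, and they differed among themselves by more than those of KLK5 or KLK6. The mean was 23.1 ± 10.5 (SD, n = 3), 3.74-fold lower than in WT (95% interval 2.69 to 5.21), with a log2 difference of -1.95 (SE 0.56, limma adjusted p = 0.0213). The call was lost without KD 2 (-1.84, adjusted p = 0.0639) and with no filter on low counts (adjusted p = 0.113). KLK14, a trypsin-like activator in the skin cascade, had values of the same direction that missed the threshold. KLK14 (ENSG00000129437, 51077495 to 51084245, minus strand) had 15.2, 3.11 and 11.1 normalized counts in knockdown and 37.8 in WT. All 3 lay below WT, with 30 reads over the knockdown group and 34 in WT. With a knockdown mean of 9.8, KLK14 too passed the filter only through WT. Its rate was 4.08-fold lower (95% interval 2.42 to 6.9), and the log2 difference was -2.06 (SE 0.87, 95% interval -4.15 to 0.04, limma adjusted p = 0.0732). It passed by edgeR (adjusted p = 0.0421), with equal library totals (0.0361), with a pseudocount of 5 (0.0334) and without KD 1 (0.0493).

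KLK9 (ENSG00000213022, 51003111 to 51009634, minus strand), the least studied of the members, had 0 reads in all 4 libraries. In WT, a count of 0 allows up to 3.33 normalized counts by the floor of 3 reads. A read-through transcript of KLK8 and KLK9 (ENSG00000269741) covers 93.7% of the exonic bases of KLK9 and 40.1% of those of KLK8 on the same strand. It too had 0 reads in every library. Reads that match both could have been dropped or split by the counting, so the levels of KLK9 and KLK8 are uncertain. The treatment of reads matching several genes was not given in the sources used here.

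**Figure D2:**
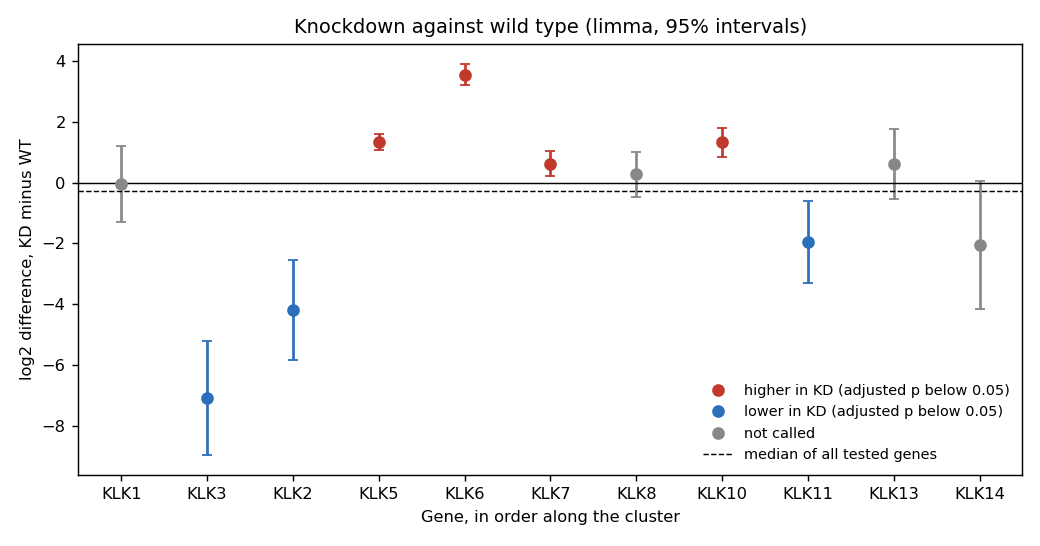
Log2 difference, knockdown minus wild type, of log2(normalized count + 1) for the 9 tested members and for KLK1 and KLK2, in order along the cluster, with the 95% interval of the limma fit as bars. Red points passed the test upward, blue points downward and grey points did not pass, and the dashed line is the median of all tested genes (-0.28). The called rises lie from KLK5 to KLK10 and the largest falls at KLK3 and KLK2.

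Levels between genes were compared per length, as RPKM (reads scaled by exonic length and library total). KLK5 led in knockdown with 29.4 ± 0.727 RPKM (SD, n = 3) and in WT with 17.2. KLK6 came next in knockdown at 7.07 ± 0.07 RPKM, but had rank 8 in WT at 0.872. KLK10, KLK7 and KLK8 followed in knockdown at 3.16 ± 0.346, 3.14 ± 0.14 and 2.66 ± 0.785 RPKM, and the ranges of KLK10 and KLK7 overlapped, as did those of KLK7 and KLK8. In WT their levels were 1.84, 2.99 and 3.14 RPKM, where the counting intervals of KLK7 (2.60 to 3.43) and KLK8 (2.67 to 3.66) overlapped. KLK13, KLK14 and KLK11 were at 0.463 ± 0.137, 0.178 ± 0.110 and 0.162 ± 0.0736 RPKM in knockdown, and the ranges of KLK14 and KLK11 overlapped. In WT, KLK14, KLK3 and KLK11 lay at 1.03, 0.944 and 0.899 RPKM, above KLK6, with overlapping counting intervals, and KLK13 was at 0.429. The wild-type library thus had 9 members with reads and the knockdown libraries 8.

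Ratios between members within a library do not depend on how libraries are scaled. For each 100 reads of KLK5 there were 29.1, 29.3 and 28.0 reads of KLK6 in KD 1, 2 and 3 and 6.07 in WT (95% exact interval 4.44 to 8.12). KLK6 was higher relative to KLK5 in all 3 knockdown libraries, which hardly differed among themselves. KLK7 went the other way, with 15.4, 15.7 and 16.1 reads per 100 of KLK5 in knockdown and 25.7 in WT (21.9 to 30). KLK10 had 25.7, 22.4 and 27.0 in knockdown and 25 in WT (21.3 to 29.3), so its groups overlapped. KLK8 had 10.7, 13.2 and 6.88 in knockdown and 20.6 in WT (17.3 to 24.4), and all knockdown libraries were below WT. Of the member reads scaled by length, KLK6 made up 15.3%, 15.5% and 15.2% in knockdown and 2.97% in WT, while KLK5 made up 62.8%, 63.2% and 64.8% against 58.6%. Summed over the members, kallikrein reads were 88.3, 88.3 and 90.1 RPM in knockdown and 59.6 in WT.

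**Figure D3:**
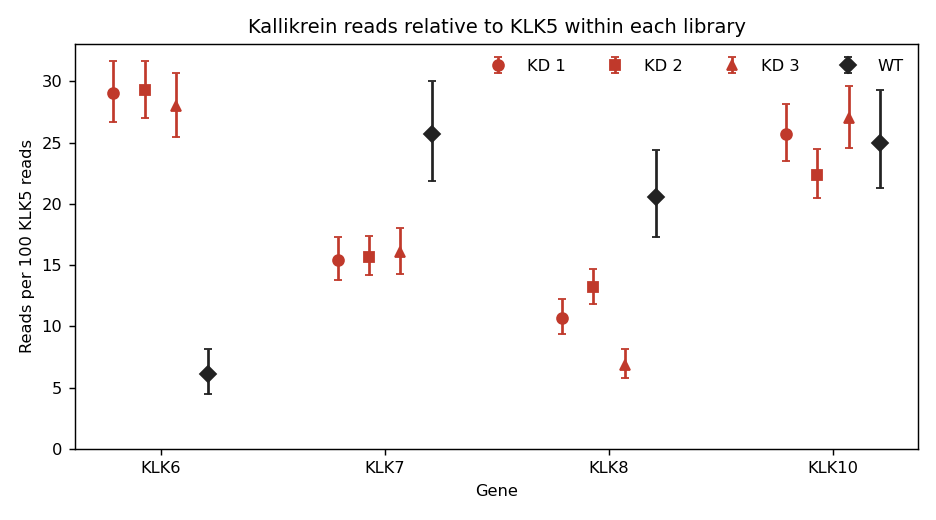
Reads of KLK6, KLK7, KLK8 and KLK10 per 100 KLK5 reads within each library (knockdown red, wild type black), with exact 95% counting intervals as bars. KLK6 lies higher in all knockdown libraries (28.0 to 29.3 against 6.07), KLK7 and KLK8 lie lower, and KLK10 overlaps WT.

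The members also differed in how they varied among the knockdown libraries. With the deposited scaling, the 4 members that rose were lowest in KD 2 and highest in KD 3, but this order depends on the scaling. As RPM, KLK5 stood at 47.5, 48.2 and 49.8 in KD 1, 2 and 3, KLK7 at 7.33, 7.58 and 8, and KLK6 at 13.8, 14.1 and 13.9, so that KD 2 was lowest for KLK10 alone (12.2, 10.8 and 13.5). The counting intervals of KLK6 also overlapped between all 3. KLK8 was highest in KD 2 and lowest in KD 3 on both scales, with 277 normalized counts in KD 2 (95% counting interval 249 to 308) and 163 in KD 3 (138 to 192). KLK11, KLK13 and KLK14 were each highest in KD 1. The coefficient of variation over the knockdown libraries was 3.84% for KLK6, 6.26% for KLK5, 7.89% for KLK7 and 15.2% for KLK10, against 25.6% for KLK8, 30.7% for KLK13, 45.4% for KLK11 and 62.6% for KLK14. The last 3 rest on few reads. The genes whose pattern over the 4 libraries was most like that of KLK5 were TBCB, ELAVL1 and USP14, with a root mean square difference of 0.006, 0.008 and 0.009 on the centred log2 scale.

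The remaining genes of the cluster were mostly silent. KLK1, which encodes tissue kallikrein, had 17.1, 18.6 and 26.7 normalized counts in knockdown and 21.1 in WT, with overlapping groups (log2 difference -0.05, limma adjusted p = 0.941). KLK4 had 0, 0 and 5.56 normalized counts in knockdown and 8.89 in WT, and KLK12 had 0, 1.55 and 0 against 11.1. KLKB1, which encodes plasma kallikrein and lies outside the cluster, had 0 in all knockdown libraries and 6.66 in WT. The pseudogene KLKP1 has 2 gene rows, of which one had 0 reads in every library and the other 0, 3.11 and 0 normalized counts in knockdown and 1.11 in WT. These 4 were below the filter.

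An antisense transcript runs through the middle of the cluster. The transcript ENSG00000267879 (50968210 to 51012129, plus strand) starts within KLK6 and extends past KLK7, KLK8 and KLK9 on the opposite strand. It had 62.6, 74.6 and 53.4 normalized counts in knockdown and 289.9 in WT. All knockdown libraries were far below WT, 4.47-fold in rate (95% interval 3.72 to 5.39), with a log2 difference of -2.19 (SE 0.30, limma adjusted p = 0.00113). Of the 4 members it crosses, KLK6 and KLK7 were called higher (KLK7 not with equal totals), KLK8 was not called and KLK9 had no read. Its exons share no base with the members' exons in GENCODE 29. A further antisense transcript, ENSG00000269495, shares 20.3% of the exonic bases of KLK6 and 12.2% of those of KLK5 but had 0, 1.55 and 0 normalized counts in knockdown and 10.0 in WT. The libraries keep strand, but the counting's strand setting was not given in the sources used here. Reads of a gene and its antisense partner cannot be told apart with certainty.

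Genes beside the cluster gave a mixed picture. Within 500 kb of KLK1 or KLK14, 18 of 78 other genes were tested, of which 5 were higher and 4 lower, with a median log2 difference of -0.78 (with equal library totals 1 and 9, with median-of-ratios factors 5 and 2). Over all tested genes 31.4% were higher and 36.3% lower, with a median of -0.28, and over protein-coding genes 46.3% and 25.6%. Of the 18 tested neighbours, 17 are protein-coding. On the KLK1 side 11 were tested, 5 higher and 3 lower, with a median of 0.32. The largest rise there was in C19orf48, 14.2 kb from KLK1, with 4943, 4534 and 4869 normalized counts in knockdown and 2331 in WT (log2 difference 1.04, limma adjusted p = 2.40e-04). The largest called fall there was in NAPSA, an aspartic protease gene, with 11.4, 4.66 and 8.89 against 34.4 (log2 difference -2.00, limma adjusted p = 0.0362), which was not called with median-of-ratios scaling. On the KLK14 side only 7 were tested, too few to compare the sides, with none higher and 1 lower. That gene was ETFB, an electron transfer flavoprotein subunit, with 219, 189.6 and 152 normalized counts against 418 (log2 difference -1.17, limma adjusted p = 0.00599).

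**Figure D4:**
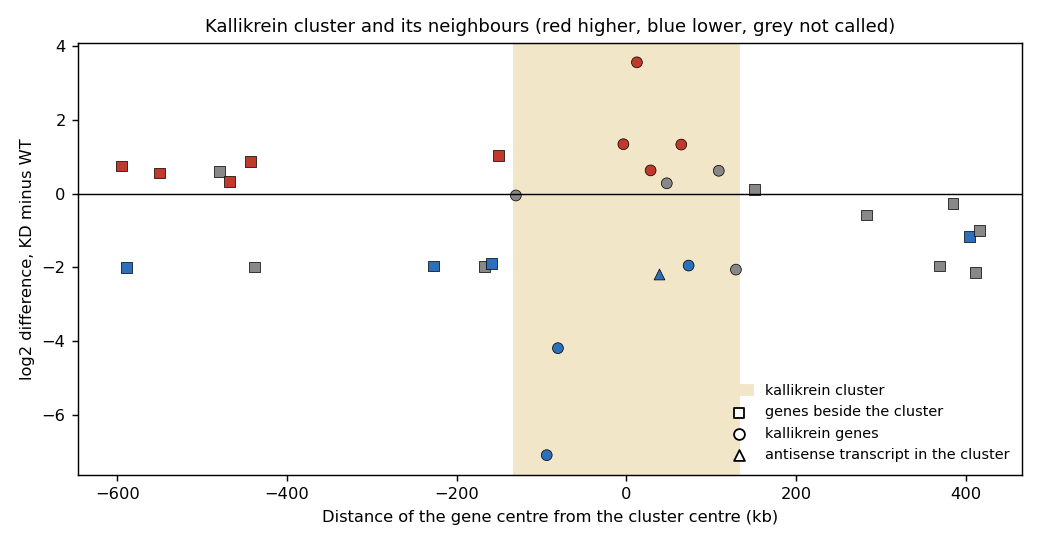
Log2 difference, knockdown minus wild type, against distance of each gene's centre from the centre of the kallikrein cluster in kb, for tested kallikrein genes (circles), an antisense transcript (triangle) and tested genes within 500 kb of the cluster (squares). Red genes were called higher, blue lower and grey neither. On the KLK14 side (right) none of only 7 tested genes was called higher, and the range of differences is widest inside the cluster, from -7.09 to 3.56.

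Inhibitors of kallikreins moved in both directions. Of 18 listed inhibitor genes 10 were tested, 3 were higher and 5 lower, with a median log2 difference of -0.57. Over all tested protein-coding genes, the background for this and the following lists, 46.3% were higher and 25.6% lower, with a median of 0.28. The summed level of the inhibitors was nonetheless higher in knockdown, at 96000 to 97955 normalized counts against 38030 in WT. SPINK5, whose product LEKTI blocks KLK5, KLK7 and KLK14 in skin, had 120.4, 147 and 86.7 normalized counts in knockdown and 462 in WT (log2 difference -1.99, SE 0.32, limma adjusted p = 0.00202). SPINK6, another Kazal-type inhibitor of kallikreins, had 19, 39.6 and 13.3 against 144 (log2 difference -2.68, limma adjusted p = 0.00998). Both lay far below WT in every knockdown library. The serpin gene SERPINA5, which encodes the protein C inhibitor, had 5.69, 3.11 and 15.6 against 50 (log2 difference -2.73, limma adjusted p = 0.0296). A2M, the broad protease trap of plasma, had 11.4, 1.55 and 3.34 against 116 (log2 difference -4.50, limma adjusted p = 0.00632). PI3 (elafin), an elastase inhibitor of the WAP family, was among the 3 that rose, with 16046, 16527 and 16139 normalized counts against 3802 (log2 difference 2.09, SE 0.10, limma adjusted p = 6.57e-05). SLPI (log2 difference 1.72) and SERPING1 (1.08) were the other called rises. SERPINA5 and A2M passed the filter only through WT. These named calls held under every scaling tried.

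Among proteases that work with kallikreins, 14 of 18 were tested, 3 were higher and 6 lower, with a median log2 difference of -0.47 (median-of-ratios factors gave 4 and 4, equal totals 2 and 10). CTSV, which encodes the lysosomal cysteine protease cathepsin V, had 1104, 943 and 1105 normalized counts in knockdown and 419.8 in WT (log2 difference 1.32, limma adjusted p = 3.27e-04). HPN, the membrane serine protease hepsin, fell from 169 in WT to 12.3, 14.8 and 8.89 (log2 difference -3.73, limma adjusted p = 0.001). TMPRSS11D, an airway trypsin-like protease gene, fell from 725 to 113, 146 and 62.3 (log2 difference -2.83, limma adjusted p = 0.00198). F2, the gene of prothrombin, had 18.0, 7.77 and 6.67 against 45.5 (log2 difference -2.10, limma adjusted p = 0.0342), a call not made with median-of-ratios scaling. ST14, or matriptase, an activator upstream of skin kallikreins, had 5349, 5201 and 6041 against 4264. It was called higher with the deposited scaling (log2 difference 0.37, limma adjusted p = 0.0287) but stood at -0.19 with equal totals.

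Of 28 target and receptor genes 18 were tested, 4 were higher and 10 lower, with a median log2 difference of -0.42 (6 and 5 with median-of-ratios scaling). F2RL1 encodes PAR2, a receptor on the cell surface that KLK5, KLK6 and KLK14 can cut and activate. It rose, with 5608, 4829 and 6361 normalized counts in knockdown and 2683 in WT (log2 difference 1.05, SE 0.16, limma adjusted p = 0.00152). FLG encodes filaggrin, a keratin-binding protein that proteases process in skin, and had 32679, 37701 and 35909 against 10519 (log2 difference 1.75, limma adjusted p = 1.13e-04). IGFBP5, a carrier of insulin-like growth factors, showed the list's largest fall, with 153, 251 and 247 against 13298 (log2 difference -5.97, limma adjusted p = 6.57e-05). The matrix metalloproteinase gene MMP2 had 53.1, 59.1 and 120.1 against 1608 (log2 difference -4.46, limma adjusted p = 3.07e-04), and MMP9 had 9.48, 11.7 and 6.67 against 43.3 (log2 difference -2.14, limma adjusted p = 0.0174). For all of these the groups did not overlap, as for most tested genes (all 3 knockdown libraries above WT in 40.0%, below it in 52.2%).

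Nuclear receptors that regulate kallikreins gave 4 higher and 2 lower of 10 tested among 11, with a median log2 difference of 0.17 (median-of-ratios factors gave 6 and 1, equal totals 2 and 6). ESR2, the gene of estrogen receptor beta, had 247, 298 and 222 normalized counts in knockdown and fell from 1452 in WT (log2 difference -2.51, limma adjusted p = 1.13e-04). ESR1, the gene of estrogen receptor alpha, was low, with 49.3, 50.5 and 33.4 against 17.8 (log2 difference 1.25, limma adjusted p = 0.0448), and was not called with equal totals. NR3C1, the glucocorticoid receptor gene, had 7813, 7477 and 8441 against 3462 (log2 difference 1.19, limma adjusted p = 1.96e-04). PGR, the progesterone receptor gene, had 0, 3.11 and 2.22 against 4.44 and was below the filter.

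Transcription factors of epithelia that express kallikreins gave 5 higher and 2 lower of 14 tested among 15, with a median of 0.07 (median-of-ratios factors gave 7 and 1, equal totals 2 and 7). FOXA1, a pioneer factor that opens chromatin, had 402, 423 and 504 normalized counts against 75.5 (log2 difference 2.53, limma adjusted p = 1.08e-04). HIF1A, the oxygen-sensing factor, had 20795, 19631 and 22036 against 8687 (log2 difference 1.26, limma adjusted p = 2.25e-04). TP63, the basal epithelial factor, had 91.0, 83.1 and 109 against 46.6 (log2 difference 0.99, limma adjusted p = 0.028) and was not called with equal totals. TFAP2A fell from 8850 to 4537, 5159 and 4810 (log2 difference -0.87, limma adjusted p = 7.04e-04). The knockdown libraries did not overlap WT in any of these 4, which were named for their large called differences. Over all tested genes, all 3 knockdown libraries lay above WT in 40.0% and below it in 52.2%.

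Most tested squamous and keratinocyte markers were higher in knockdown. Of 22 such markers 10 were tested, 9 were higher and none lower, with a median log2 difference of 1.40 (6 and 1 with equal totals). Among all tested protein-coding genes, 46.3% were called higher and 25.6% lower. The summed level of the markers was 4058 to 4775 normalized counts in knockdown and 2184 in WT. KRT5, the tested marker that was not called, went the other way, with a log2 difference of -0.74 (-1.30 with equal totals). DSG1 had reads only in WT, and DSG3 only in knockdown. Defining markers of the cornified layer (IVL, LORICRIN, SPRR1A, SPRR1B and SPRR3) and KRT13 had no read in any library. The part of these markers in the rise of KLK5, KLK6, KLK7 and KLK10 was not tested.

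**Figure D5:**
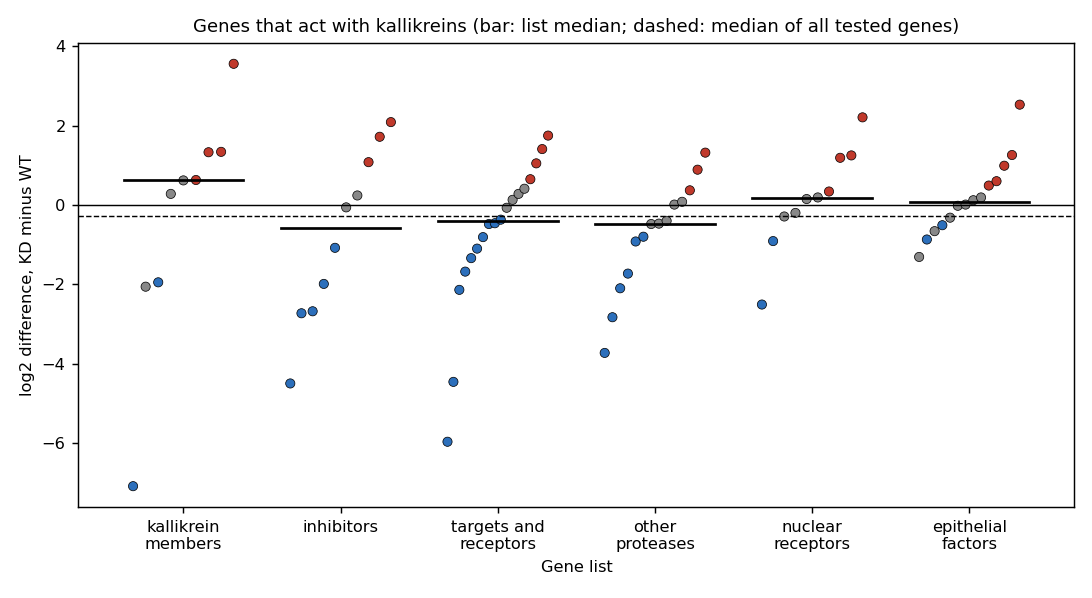
Log2 difference, knockdown minus wild type, of each tested gene in the kallikrein group and in 5 lists of genes that act with kallikreins, sorted within each list, with red for called higher, blue for called lower and grey for neither. Bars are list medians (0.62 for the kallikreins, -0.57 for inhibitors) and the dashed line is the median of all tested genes (-0.28). Every list holds genes called in both directions.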

How the data were processed

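Total RNA of 4 OVCAR3 libraries, depleted of ribosomal RNA and made strand-specific per the labels, was compared. The submitters' processing notes name STAR 2.7.11b, featureCounts 2.0.6, DESeq2 and the build hg38. The deposited values are a signal, normalized read counts per gene. They are whole multiples of 1 step per library to within 0.001 reads, so reads were recovered. The authors' strand setting, annotation release and factors were not given in the sources used here.

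Differences were tested with limma-trend (limma 3.58.1, R 4.3.3) on log2(normalized count + 1) over all genes with a mean of at least 10, and Benjamini-Hochberg adjusted p-values under 0.05 were called. Only the 3 knockdown libraries give a spread, which is taken to hold for the single WT library too. A gene averaging under 10 in one group passes this filter only through the other group, which fixes which group has the higher mean. Log2 differences understate changes of low genes. edgeR 4.0.16, DESeq2 1.42.0 on the recovered reads, other scalings, pseudocounts and filters were alternatives. The scripts were tested on simulated data. Folds are ratios of pooled reads over pooled factors, with exact 95% binomial intervals that cover counting error only, and single counts have Poisson intervals. Positions and exonic lengths come from GENCODE 29, which matched 92.9% of rows, and promoter windows from RefSeq (GRCh38.p14).

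The members and gene lists were chosen with earlier results of these data known. Named genes are all members, other kallikrein genes with a read, up to 4 called genes per list by size with the largest rise and fall, further genes set by name (F2RL1, SPINK5, ST14, ESR1 and PGR, and 1 that is not reported here), the 3 genes most like KLK5, the largest called changes on each side of the cluster, and ANAPC1P2. No sample was left out.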

Additional observations from a re-analysis of the deposited data

How the results depend on the processing

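Member differences were recomputed 113 times under other settings, and 105 kept their direction and their side of the threshold. The 8 exceptions concern KLK7, KLK8, KLK11 and KLK14. KLK8 reversed to -0.28 with equal library totals. The number of members called higher was 4 under every setting except equal totals, with 3. The number called lower was 1 with no filter on low counts and 0 with a mean of at least 50, where KLK3 and KLK11 are no longer tested by construction. It ranged from 1 to 3 when each knockdown library was left out in turn, and was 1, KLK3, without KD 2. The median log2 difference of the members, 0.62, became 0.73 with edgeR, 0.81 with DESeq2, 0.71 with TMM, 0.89 with median-of-ratios scaling, 0.07 with equal totals, 0.55 with a pseudocount of 5 and 1.33 with a mean of at least 50, where 5 members were tested. It ranged from 0.39 to 0.67 when each knockdown library was left out. These scalings also move the median of all tested genes, and apart from that the cause was not tested. The single wild-type library could not be left out. Depth limits KLK11, KLK13 and KLK14, with 78, 24 and 34 reads in the wild-type library. No paired analysis was possible because the wild-type group holds 1 library, whose label carries no replicate number.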

Other observations

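The 4 protease-activated receptor genes, receptors that are switched on when a protease cuts their outer end, did not all move with F2RL1. They were looked at together after their values were seen. F2R, the main thrombin receptor, had 2409, 2469 and 3190 normalized counts in KD 1, 2 and 3 and 3672 in WT (log2 difference -0.46, limma adjusted p = 0.049). F2RL2 had 114, 137 and 119 against 215 (log2 difference -0.81, limma adjusted p = 0.0215), and F2RL3 had 24.6, 26.4 and 20.0 against 61.1 (log2 difference -1.34, limma adjusted p = 0.0328). All 3 were below WT in every knockdown library and F2RL1 above it. With median-of-ratios scaling none of these 3 falls was called, while the rise of F2RL1 was.

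The WAP-family inhibitor gene SLPI, singled out after its value was seen, had the highest counts of the inhibitor list. It stood at 68454, 68818 and 68291 normalized counts in knockdown and 20827 in WT (log2 difference 1.72, SE 0.14, limma adjusted p = 1.33e-04). SERPINB4 and CSTA, protease inhibitor genes of squamous epithelia singled out in the same way, had 81.5, 90.9 and 91.2 against 4.44 and 549.7, 518 and 671 against 15.5. Their log2 differences were 4.03 (limma adjusted p = 2.01e-04) and 5.12 (limma adjusted p = 6.57e-05).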
